A study of Bos taurus with 90 samples.

Results

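The miRNAs miR-103 and miR-107 were taken by name from the deposited expression values, and they are 2 of the 388 miRNAs listed in at least 1 tissue and 2 of the 289 listed in every tissue. Small RNA had been sequenced from 90 tissue samples of mid-lactation Chinese Holstein dairy cows. The forage of the ration was alfalfa hay, corn stover or rice straw, with 6 cows for each, and mammary gland, liver, jejunum, duodenum and rumen epithelium came from every cow, which gave 18 samples a tissue and 6 samples for each tissue and diet. All 3 diets are built on forage, so no group without forage stood as a control, and every difference is between forages or between organs of lactating cows.

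MicroRNAs are short RNAs that lower the stability and translation of messenger RNAs with matching sites. miR-103 and miR-107 are close relatives with nearly identical mature sequences, and they are known for restraining insulin signalling in liver and fat tissue and for effects on lipid metabolism. Their genes lie in genes for pantothenate kinases, the enzymes of the opening step of coenzyme A synthesis. By name in the ARS-UCD2.0 RefSeq annotation of the cow, MIR103-1 lies inside PANK3, MIR103-2 inside PANK2 and MIR107 inside PANK1, so that mature miR-103 can come from 2 genes and miR-107 from 1.

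Each value is a CPM, the reads of a miRNA per 1000000 reads mapped to all annotated miRNAs in that sample. Between 1478 and 62818 reads lay behind a value of miR-103 and between 367 and 15373 behind a value of miR-107, in libraries of 937556 to 15621501 mapped reads. The 95% counting error of the ratio of miR-103 to miR-107 in a single sample lay between 1.76% and 11.4% of the ratio, with a median of 3.73%. Because the authors' alignment allowed mismatches and several mappings per read, reads of the pair could have been shared between them, and the separate values are uncertain to that extent. The ratio is a ratio of reads, which need not equal that of molecules.

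The labelled tissues carried their markers. The liver miRNA miR-122 stood at 8671 to 12720 CPM in liver, was at most 48.5 CPM in mammary gland and was not listed in rumen, duodenum and jejunum. The 3 miRNAs of intestinal epithelium (miR-192, miR-194, miR-215) summed to 144400 to 411400 CPM in duodenum and jejunum, to 122100 to 196000 CPM in liver, whose cells also use them, and to at most 4561 CPM in rumen and mammary gland. The miRNAs of stratified epithelium (2 of 3 listed in rumen) summed to 25810 to 54760 CPM in rumen and to at most 9101 CPM elsewhere, while those of mammary secretory epithelium (3 of 3) summed to 94370 to 253500 CPM in mammary gland, a range that overlapped that of liver. In mammary gland, 4 libraries (rice straw replicates 1, 4 and 5 and alfalfa hay replicate 1) stood apart. They held 937556 to 2625000 mapped reads, against 4421600 or more in the other 14. Their median correlation with the rest of the tissue was 0.926 to 0.954, against 0.964 to 0.989. Most tests, counts and shares that rest on mammary gland are also given without them, an alternative chosen after their depth was seen. The tests of the interaction of tissue and diet are given with all libraries only.

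miR-103 was highest in mammary gland and lay within a narrow span in the other 4 tissues, while miR-107 was high in both liver and mammary gland, intermediate in rumen and low in the small intestine. The mean of miR-103 was 4400.5 ± 1435 CPM (SD, n = 18) in mammary gland, 2834 ± 548 CPM in rumen and 2697 ± 435 CPM in liver, and in the small intestine 2599 ± 360 CPM in jejunum and 2379 ± 324 CPM in duodenum. The mean of miR-107 was 1034 ± 397 CPM (SD, n = 18) in mammary gland, 1016 ± 171 in liver, 649 ± 124 in rumen, 417 ± 72.6 in jejunum and 369 ± 60.1 in duodenum. The pair was thus well expressed throughout, with miR-103 the more abundant member in all 90 samples. By mean CPM, miR-103 ranked 27 among the 328 miRNAs of mammary gland, 32 of 330 in liver, 40 of 337 in jejunum, 41 of 338 in duodenum and 44 of 340 in rumen. miR-107 ranked 57 in liver, 67 in mammary gland, 84 in rumen, 93 in jejunum and 97 in duodenum.

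The samples of miR-103 overlapped between every pair of tissues. In mammary gland the lowest sample had 1576 CPM, the median was 4539 CPM and the highest was 6625 CPM. In rumen the values ran from 1664 CPM through a median of 2978 to 3393 CPM, and in liver from 1955 through 2668 to 3399 CPM. Mammary gland held both the lowest and the highest sample of the study, both of them among the 4 shallow libraries, and 13 of its 18 samples lay above all samples of liver. In jejunum the values ran from 1743.5 CPM through 2654 to 3166 CPM, and in duodenum from 1903 through 2332 to 3119 CPM. Liver and small intestine occupied much the same span, and 9 of 18 rumen samples lay above every duodenum sample.

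The samples of miR-107 separated the tissues further. In liver the lowest sample had 737 CPM, the median was 999.5 CPM and the highest was 1359 CPM. In jejunum the values ran from 277 CPM through 409 to 578 CPM, and in duodenum from 292 through 363 to 531 CPM. No liver sample overlapped with a sample of the small intestine. The share of all miRNAs without such overlap was not counted. In the tests below, 82.7% and 84.8% of all miRNAs were called between liver and duodenum or jejunum. In rumen the values ran from 400.3 CPM through 644 to 845 CPM, and 15 of 18 lay above all duodenum samples. In mammary gland they ran from 391 CPM through 1023 to 1991 CPM, a span that enclosed that of liver.

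**Figure D1:**
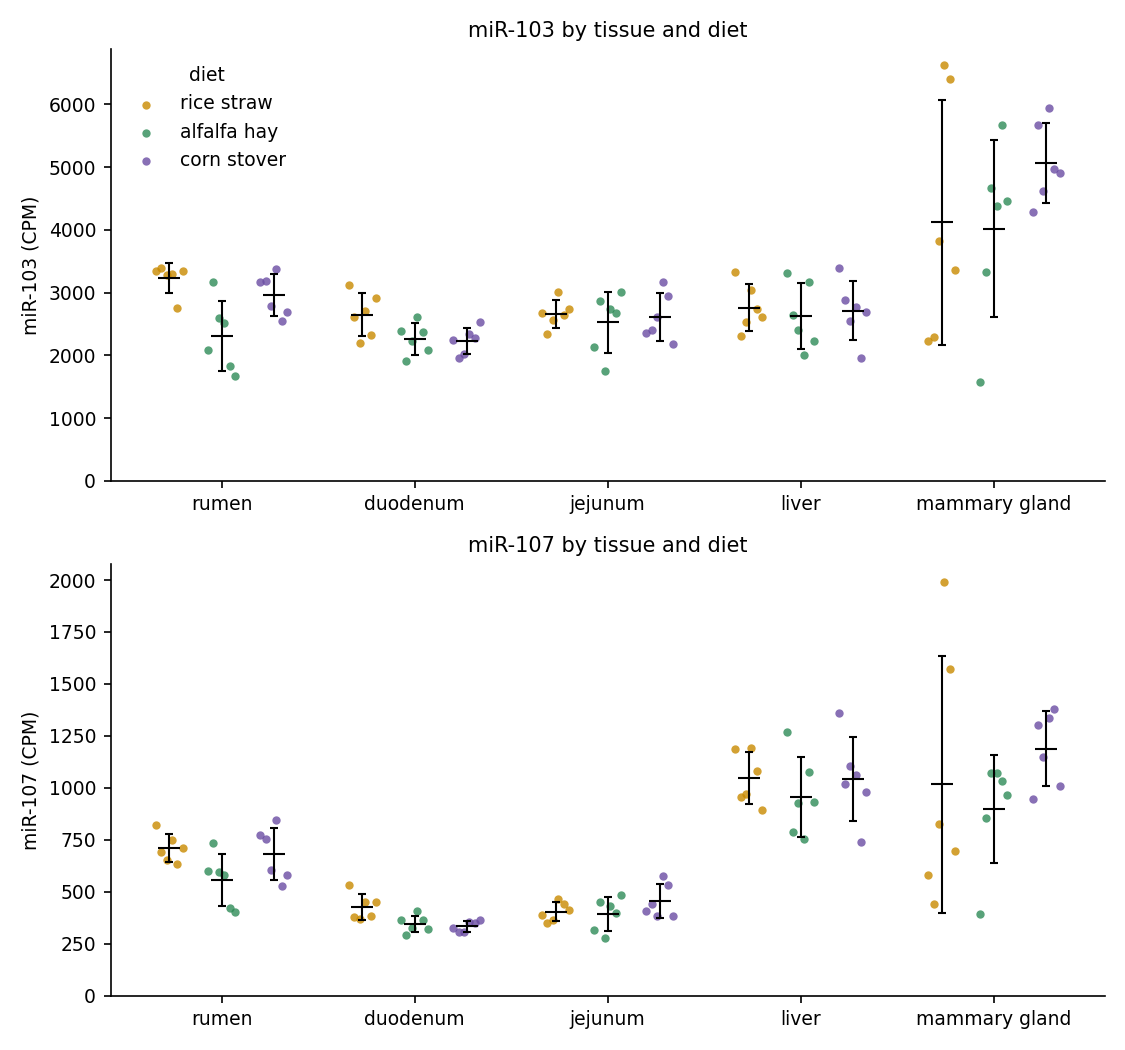
CPM of miR-103 (top) and miR-107 (bottom) on linear axes from 0, by tissue and coloured by diet; each point is a sample, and bars give the mean and SD of the 6 samples of a group. miR-103 is highest in mammary gland, up to 6625 CPM, while miR-107 is high in liver and mammary gland and stays at or below 578 CPM in duodenum and jejunum.

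Differences between tissues were tested with limma on log2(CPM + 1) over the 289 shared miRNAs, as means over the 3 diets, with p-values adjusted by the Benjamini-Hochberg method and called under 0.05. In bulk tissue, fewer cells that make a miRNA and less of it per cell cannot be told apart. miR-103 was lower in each other tissue than in mammary gland. The log2 difference from mammary gland was -0.81 for duodenum (SE 0.11, adjusted p = 2.65e-10), -0.68 for jejunum (SE 0.11, adjusted p = 3.53e-08), -0.63 for liver (SE 0.11, adjusted p = 2.67e-07) and -0.57 for rumen (SE 0.11, adjusted p = 1.71e-06). Such differences were common in these comparisons, which called 82.7%, 81.3%, 70.2% and 84.8% of all miRNAs tested, and 39.8%, 39.1%, 39.8% and 33.9% as higher in mammary gland. Without the 4 shallow libraries the differences of miR-103 were -0.80, -0.67, -0.62 and -0.56, and all 4 still passed.

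Outside mammary gland miR-103 differed little on the values as deposited. It was higher in rumen than in duodenum by a log2 difference of 0.24 (SE 0.11, 95% interval 0.02 to 0.45, adjusted p = 0.045), in a comparison that called 72.7% of miRNAs. The other 5 pairs among rumen, duodenum, jejunum and liver did not pass, with log2 differences between -0.18 for duodenum against liver (95% interval -0.39 to 0.04, 82.7% of miRNAs called) and 0.11 for rumen against jejunum (95% interval -0.11 to 0.32, 75.8% called). Rumen against liver gave 0.06 (95% interval -0.16 to 0.28, 84.4% called), jejunum against liver -0.05 (95% interval -0.26 to 0.17, 84.8% called) and duodenum against jejunum -0.13 (95% interval -0.34 to 0.09, 11.4% called). In order of level (duodenum, jejunum, liver, rumen), only the ends passed in this fit. Its SE of 0.11 was pooled over all 5 tissues, mammary gland included, so it is not the spread of these tissues alone. In a fit of duodenum and liver alone that pair passed too. The calls against liver also depended on scaling, as given below.

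miR-107 passed in 8 of the 10 pairs of tissues, in comparisons that called between 72.7% and 84.8% of all miRNAs in those 8 pairs. It was lower in duodenum than in liver by a log2 difference of -1.46 (SE 0.12, adjusted p = 6.70e-20) and than in mammary gland by -1.39 (SE 0.12, adjusted p = 8.87e-19). It was lower in jejunum than in liver by -1.28 (SE 0.12, adjusted p = 3.49e-17) and than in mammary gland by -1.22 (SE 0.12, adjusted p = 4.88e-16). Rumen stood between these 2 levels. Its log2 difference was 0.80 from duodenum (SE 0.12, adjusted p = 3.26e-09), 0.63 from jejunum (SE 0.12, adjusted p = 1.51e-06), -0.65 from liver (SE 0.12, adjusted p = 4.49e-07) and -0.59 from mammary gland (SE 0.12, adjusted p = 4.40e-06). Duodenum against jejunum (-0.17, 95% interval -0.40 to 0.06, adjusted p = 0.398) and liver against mammary gland (0.06, 95% interval -0.17 to 0.30, adjusted p = 0.626) did not pass. Without the 4 shallow libraries the differences from mammary gland were -1.31 for duodenum, -1.14 for jejunum, -0.51 for rumen and 0.15 for liver, with the same calls.

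Part of these differences depended on how the libraries were scaled, since a CPM is a share of all miRNA reads. As deposited, the median log2 difference of all 289 miRNAs was 0.47 for rumen against liver, 0.42 for jejunum against liver and 0.36 for duodenum against liver. Upper-quartile scaling moved these medians to -0.21, -0.06 and -0.12, and TMM scaling moved them to 0.06, 0.23 and 0.21. With either scaling, or with edgeR or DESeq2 on the recovered reads, miR-103 became lower in rumen than in liver (-0.66, -0.38, -0.38 and -0.52), and it passed as lower in duodenum and in jejunum than in liver. The balance of calls over all miRNAs moved too: rumen against liver had 159 higher and 85 lower as deposited and 110 and 142 with upper-quartile scaling, and liver against mammary gland had 88 and 115 as deposited and 139 and 82 with upper-quartile scaling. Rumen against duodenum then lost its call for miR-103 (0.05, -0.04, -0.03 and -0.02), and rumen against jejunum turned to between -0.12 and -0.06 without passing. miR-107 passed as higher in liver than in mammary gland in the same 4 analyses (0.46, 0.28, 0.21 and 0.24). miR-103 lower in each other tissue than in mammary gland and the 8 calls of miR-107 kept their direction and passed in all 4.

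**Figure D2:**
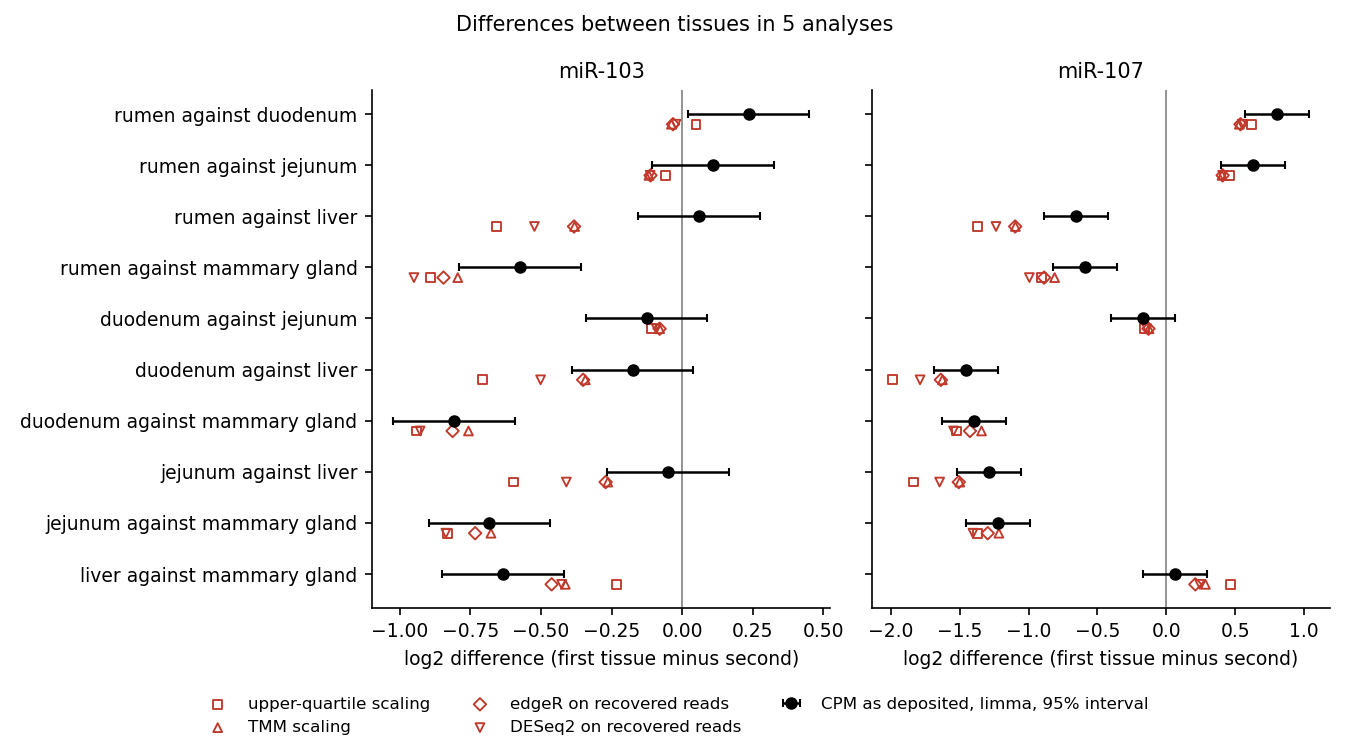
Log2 differences between pairs of tissues, first tissue minus second, for miR-103 (left) and miR-107 (right). Black points are the limma estimates on CPM as deposited with 95% intervals, and open red symbols are the estimates with upper-quartile scaling, TMM scaling, edgeR and DESeq2; the symbols for rumen against liver lie left of 0 for miR-103, whose black point is at 0.06.

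The ratio of miR-103 to miR-107 in a sample does not depend on the scaling of the library, and it differed between more pairs of tissues without overlap than either level did. The mean ratio was 6.48 ± 0.31 (SD, n = 18) for duodenum, 6.29 ± 0.52 for jejunum, 4.38 ± 0.37 for rumen, 4.34 ± 0.55 for mammary gland and 2.67 ± 0.25 for liver. The tissues thus formed 3 levels, with the small intestine highest, rumen and mammary gland in the middle and liver lowest. In duodenum the ratio ran from 5.88 through a median of 6.52 to 6.92, and in jejunum from 5.45 through 6.36 to 7.01. In rumen it ran from 3.47 through 4.35 to 5.03, and in mammary gland from 3.33 through 4.36 to 5.48. In liver it ran from 2.30 through 2.61 to 3.36, and of all samples outside liver 1, from mammary gland, lay inside that range.

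The log2 ratio was compared between tissues by a two-sided permutation test with 100000 permutations, adjusted over the 10 pairs. The ratio was 2.44-fold higher in duodenum than in liver and 2.36-fold higher in jejunum than in liver. It was 1.64-fold higher in rumen than in liver, and 1.62-fold higher in mammary gland than in liver. Duodenum exceeded rumen 1.48-fold and mammary gland 1.50-fold, and jejunum exceeded them 1.44-fold and 1.45-fold. Each of these 8 differences had p = 1e-05, the smallest that 100000 permutations can give, and an adjusted p of 1.25e-05. In 6 of the 8 pairs no sample of either tissue overlapped with the other, while in jejunum 16 of 18 samples lay above all of mammary gland and in liver 17 of 18 lay below all of it.

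The ratio did not differ beyond its spread between rumen and mammary gland (log2 difference 0.02, SE 0.05, p = 0.745 by the permutation test) or between duodenum and jejunum (log2 difference 0.05, SE 0.03, p = 0.167 by the permutation test). Without the 4 shallow libraries the mean ratio of mammary gland was 4.49 ± 0.51 (SD, n = 14), the log2 difference from liver was -0.75 as liver minus mammary gland, and the calls were the same. The 8 differences also passed within each diet taken alone, with an adjusted p of 0.00271 in exact permutation tests of 6 samples against 6. As a share of the reads of the pair, miR-103 made up 72.6% ± 1.73 in liver, 81.1% ± 1.95 in mammary gland, 81.3% ± 1.35 in rumen, 86.2% ± 1.01 in jejunum and 86.6% ± 0.56 in duodenum (SD, n = 18).

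**Figure D3:**
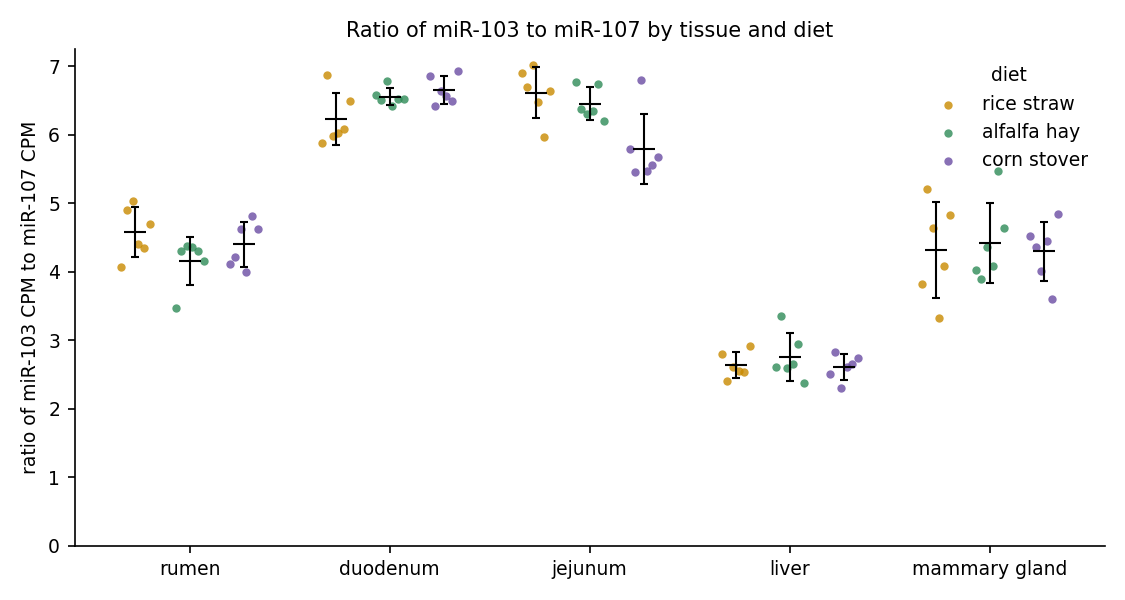
Ratio of miR-103 CPM to miR-107 CPM on a linear axis from 0, by tissue and coloured by diet; each point is a sample, and bars give the mean and SD of the 6 samples of a group. Liver lies lowest, at 2.30 to 3.36, rumen and mammary gland lie in the middle, and duodenum and jejunum lie highest, at 5.45 to 7.01.

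Within a tissue the members rose and fell together from sample to sample. The Pearson correlation of log2(CPM + 1) over 18 samples was 0.953 in duodenum, 0.953 in mammary gland, 0.917 in rumen, 0.880 in jejunum and 0.860 in liver, and Spearman's rho was 0.893, 0.928, 0.841, 0.876 and 0.839. Over the 5 tissues the adjusted p of r was at most 3e-05 and that of rho at most 5e-05 by permutation. Without the 2 samples farthest from the median of miR-103, r was 0.921, 0.939, 0.791, 0.767 and 0.761. Within single diets, r over 6 samples lay between 0.569 for rumen with rice straw and 0.998 for rumen with corn stover. Without the 4 shallow libraries, r in mammary gland was 0.927 over 14 samples.

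The joint variation left the ratio steadier than either level. The coefficient of variation of miR-103 was 32.6% in mammary gland, that of miR-107 was 38.4%, and that of their ratio was 12.6%, and without the 4 shallow libraries they were 22.7%, 25.4% and 11.3%. In rumen the same 3 values were 19.3%, 19.1% and 8.5%, and in liver 16.1%, 16.8% and 9.22%. In jejunum they were 13.8%, 17.4% and 8.26%, and in duodenum 13.6%, 16.3% and 4.75%. The members share the library and its total, and may share reads, and the part of these in the correlation was not tested.

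**Figure D4:**
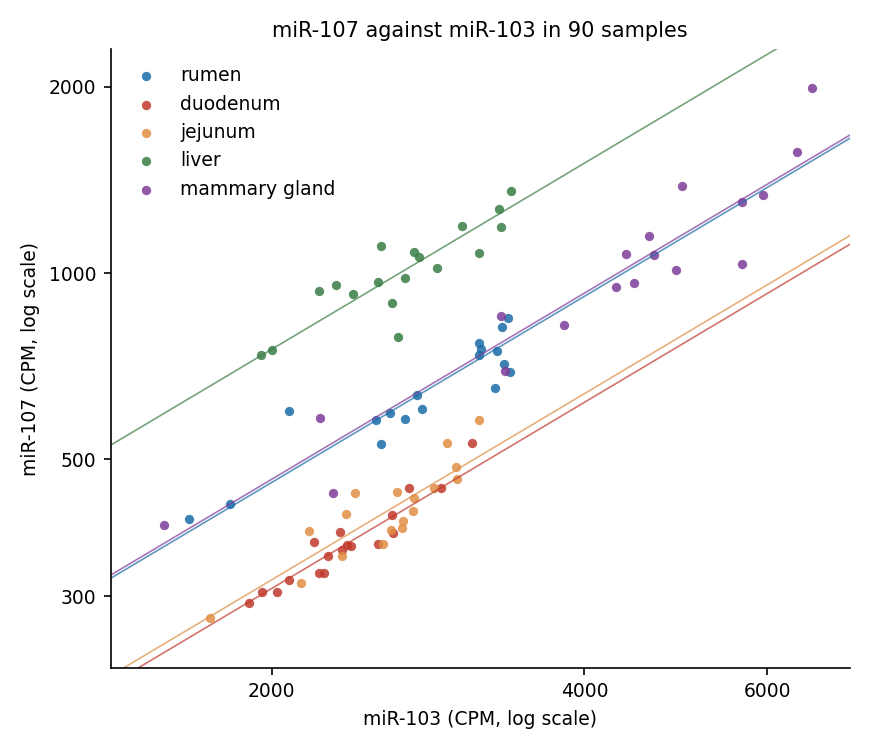
miR-107 against miR-103 in CPM, both on log axes, with a point for each of 90 samples coloured by tissue and, for each tissue, a line at its geometric mean ratio. Samples of a tissue lie along their line; liver lies on the upper line (ratio 2.66), rumen and mammary gland on lines that nearly coincide (4.36 and 4.31), and the small intestine on the lower lines (6.27 and 6.47).

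The second comparison of the design was between the 3 forages within a tissue, tested by a limma F test over the miRNAs of each tissue. Neither member passed in any tissue on the values as deposited. The limma test called 23.8% of miRNAs in jejunum, 3.72% in mammary gland and 1.49% in rumen, and 0% in liver and duodenum. At an unadjusted p under 0.05 it counted 36 of 336 miRNAs in duodenum and 17 of 326 in liver, edgeR called 0 in both, and DESeq2 called 0 in duodenum and 2 in liver. The interaction of tissue and diet did not pass for miR-103 (adjusted p = 0.292) or miR-107 (adjusted p = 0.447), in a limma F test that called 45.7% of the 289 miRNAs. The interaction was not tested without the 4 shallow libraries of mammary gland.

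In rumen, miR-103 was lowest with alfalfa hay, without passing the test. The values ran from 2759 CPM through a median of 3315 to 3393 CPM with rice straw, from 2546.5 through 2978 to 3379 CPM with corn stover, and from 1664 through 2299 to 3170 CPM with alfalfa hay. The diets overlapped, although 5 of 6 rice straw samples lay above all samples of alfalfa hay. The limma F test gave an adjusted p of 0.134, and rice straw against alfalfa hay gave a log2 difference of 0.52 (SE 0.15, 95% interval 0.21 to 0.82, adjusted p = 0.0632, 2.69% of miRNAs called). Leaving out alfalfa hay replicate 2 alone took miR-103 past the threshold of the F test (log2 difference 0.62, adjusted p = 0.0168). For miR-107 the same contrast was 0.38 (SE 0.16, 95% interval 0.04 to 0.72, adjusted p = 0.147).

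In duodenum both members were highest with rice straw, without passing the test. miR-107 ran from 367 CPM through 415 to 531 CPM with rice straw, from 292 through 345 to 407 CPM with alfalfa hay and from 305 through 338 to 365 CPM with corn stover. The lowest rice straw sample of miR-107 (367 CPM) lay just above the highest corn stover sample (365 CPM). The share of all miRNAs whose samples separate in this way was not counted. The limma test of that contrast called 0% of miRNAs. The limma F test gave an adjusted p of 0.343, and rice straw against corn stover gave a log2 difference of 0.34 (SE 0.11, 95% interval 0.11 to 0.57, adjusted p = 0.197). For miR-103 that contrast was 0.24 (SE 0.11, 95% interval 0.02 to 0.47, adjusted p = 0.312).

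On the values as deposited, the diets lay close together in jejunum and liver. In jejunum miR-103 had medians of 2654, 2709 and 2507 CPM with rice straw, alfalfa hay and corn stover, and miR-107 had medians of 399, 414.5 and 424 CPM. miR-107 with corn stover against alfalfa hay differed by 0.22 on the log2 scale (SE 0.15, 95% interval -0.08 to 0.52, F test adjusted p = 0.439), and rice straw against corn stover by -0.16 (95% interval -0.46 to 0.14), contrasts that called 22.0% and 28.6% of miRNAs. That result depended on scaling. The F test of miR-107 in jejunum passed with TMM scaling (0.41 for corn stover against alfalfa hay, adjusted p = 0.0039), with edgeR (0.40, adjusted p = 0.00374) and with DESeq2 (0.36, adjusted p = 0.00283), and did not pass with upper-quartile scaling (0.26, adjusted p = 0.0767). For miR-103 the F test in jejunum also passed with TMM scaling and with edgeR, while the limma F test as deposited gave an adjusted p of 0.838. In liver no contrast of either member exceeded a log2 difference of 0.14, and the F tests gave adjusted p = 0.973 for miR-103 and 0.922 for miR-107.

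In mammary gland the spread within a diet was widest. miR-103 ran from 2227 CPM through 3590 to 6625 CPM with rice straw, from 1576 through 4424 to 5667 CPM with alfalfa hay and from 4287 through 4935 to 5943 CPM with corn stover. miR-107 ran from 440 CPM through 759 to 1991 CPM with rice straw, from 391 through 999 to 1073 CPM with alfalfa hay and from 949 through 1226 to 1380 CPM with corn stover. The corn stover samples were the most uniform, and for both members the highest rice straw value and the lowest alfalfa hay value came from shallow libraries. The limma F tests gave adjusted p = 0.517 for miR-103 and 0.539 for miR-107, and for rice straw against corn stover the log2 differences were -0.42 (95% interval -1.11 to 0.26) and -0.42 (95% interval -1.17 to 0.33), in a contrast that called 26.6% of miRNAs.

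Leaving out the 4 shallow libraries, a choice made after their depth was seen, changed the mammary gland result. Both F tests then passed in limma (adjusted p = 0.0416 for miR-103 and 0.0209 for miR-107), in a fit that called 18.7% of miRNAs. Rice straw, with 3 samples left, was lower than corn stover by a log2 difference of -0.71 for miR-103 (SE 0.19, adjusted p = 0.0131) and -0.90 for miR-107 (SE 0.20, adjusted p = 0.00597), with 23.0% of miRNAs called. The median of all miRNAs was -0.32 in that contrast. With the 4 libraries left out and upper-quartile or TMM scaling, the contrast was -0.17 or -0.36 for miR-103 and -0.36 or -0.56 for miR-107, and no F test of a member passed (adjusted p between 0.137 and 0.305).

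**Figure D5:**
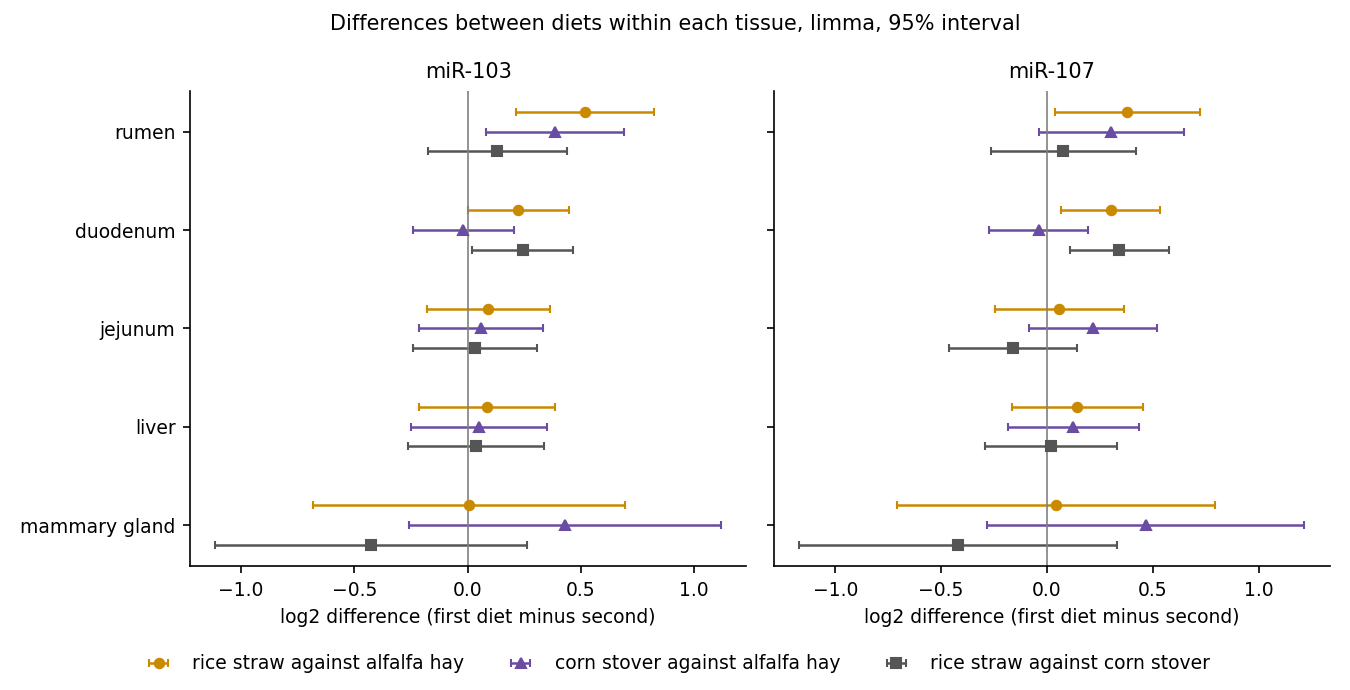
Log2 differences between diets within each tissue for miR-103 (left) and miR-107 (right) with 95% intervals from limma on all 18 samples of a tissue; circles are rice straw against alfalfa hay, triangles corn stover against alfalfa hay and squares rice straw against corn stover. The intervals are widest in mammary gland, and rice straw against alfalfa hay in rumen stands at 0.52 for miR-103 and 0.38 for miR-107.

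The ratio of the members passed the test between diets in jejunum, although the call was lost when diets were permuted within a replicate number (adjusted p = 0.0559). It ran from 5.96 through 6.67 to 7.01 with rice straw, from 6.20 through 6.36 to 6.77 with alfalfa hay and from 5.45 through 5.61 to 6.79 with corn stover. Of the 6 corn stover samples, 5 lay below every sample of the other diets, and the remaining sample, replicate 3, lay among them. The corn stover libraries had a median correlation with the rest of jejunum of 0.978 to 0.989, against 0.988 to 0.993 with the other diets. The part of this in the ratio was not tested. The geometric mean ratios were 6.61, 6.45 and 5.77, and the exact permutation test over the 3 diets gave p = 0.00597 and an adjusted p of 0.0299 over the 5 tissues. The pairwise exact permutation tests did not pass after adjustment over 15 pairs (log2 difference 0.19, SE 0.06, adjusted p = 0.146 for rice straw against corn stover, and 0.16, SE 0.05, adjusted p = 0.146 for alfalfa hay against corn stover). The call was close to the threshold, since leaving out any of 9 single libraries raised the adjusted p of the exact test to between 0.051 and 0.0605. These were rice straw replicates 1, 2, 3 and 6 and corn stover replicates 1, 2, 4, 5 and 6.

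Some markers of other cell types passed the limma F test over diets in jejunum, beside 23.8% of all miRNAs. The endothelial miRNAs miR-126-3p (adjusted p = 0.0130) and miR-126-5p (adjusted p = 0.000721), 2 of 2 listed, summed to 8000 to 17710 CPM with corn stover, against 18500 to 28030 CPM with alfalfa hay and 19520 to 29440 CPM with rice straw. Of 7 miRNAs of white blood cells, all listed, miR-146a (adjusted p = 0.00294) and miR-146b (adjusted p = 0.0290) passed, and the sum of the 7 ran from 19880 to 32210 CPM with corn stover and from 24280 to 37760 CPM with the other diets. Of 5 miRNAs of smooth muscle and stroma, all listed, miR-1 and miR-145 passed, and the sum ran from 184700 to 297200 CPM with corn stover and from 147300 to 247300 CPM with the other diets. Most of that sum was miR-143, which did not pass and had a mean of 210900 CPM over all jejunum samples. The sum therefore does not give the direction of miR-1 or miR-145. The 1 listed miRNA of stratified epithelium did not pass, at 8.13 to 479 CPM with corn stover and 183 to 476 CPM with the other diets, and neither did the miRNAs of intestinal epithelium (3 of 3 listed). The part of these in the result for the ratio was not tested.

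In the other tissues the ratio did not pass between diets. In duodenum the geometric means were 6.22 with rice straw, 6.56 with alfalfa hay and 6.65 with corn stover (exact permutation p = 0.0242, adjusted p = 0.0605), so that the diets stood in another order than in jejunum. The exact permutation tests gave adjusted p = 0.928 in mammary gland, 0.772 in liver and 0.262 in rumen. A difference between tissues in the effect of diet on the ratio did not pass a permutation test of the interaction (p = 0.114). That test was run with all libraries only. Duodenum and jejunum differed with corn stover (log2 difference 0.20, adjusted p = 0.012 in an exact permutation test), and not with rice straw (-0.09, adjusted p = 0.125) or alfalfa hay (0.02, adjusted p = 0.397).

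The pair belongs to the miR-15/107 group, whose members share a short run of bases near their 5′ end and are known for regulating the cell cycle and metabolism. Of 11 other names of the group, 7 were listed, and all 7 were tested between tissues. The 4 highest by mean CPM were miR-16b, miR-16a, miR-195 and miR-15a. miR-16b, a repressor of cell cycle genes, had a mean of 4321 ± 718 CPM in jejunum and 1356 ± 187 in liver (SD, n = 18), a log2 difference of 1.67 (limma, adjusted p = 4.37e-18). miR-195, of the same seed family, had 1531 ± 428 CPM in jejunum and 609.9 ± 194 in liver (SD, n = 18), a log2 difference of 1.33 (limma, adjusted p = 3.62e-14).

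Several other members of the group were higher in small intestine than in liver, while miR-107 was lower in small intestine than in liver. Of the 7, 5 were higher in duodenum than in liver and 6 higher in jejunum than in liver, with none lower, and their median log2 differences were 1.10 and 0.96 against 0.36 and 0.42 over all miRNAs. These comparisons called 50.2% and 52.9% of all miRNAs in that direction. With upper-quartile scaling the counts were 5 higher and 2 lower for duodenum, and 4 higher and 1 lower for jejunum. Of all 289 miRNAs, 110 were then higher and 132 lower for duodenum, and 101 higher and 126 lower for jejunum. miR-15a, with log2 differences of -0.16 and -0.06, did not pass in either. In both comparisons miR-107 was lower in small intestine, and miR-103 gave -0.18 and -0.05.

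Toward mammary gland the counts of the group changed when the 4 shallow libraries were left out. With all libraries, of the 7, 6 were higher in duodenum than in mammary gland and 6 higher in jejunum than in mammary gland, with medians of 0.56 and 0.59 against 0.05 over all miRNAs in each, where 42.9% and 42.2% of all miRNAs were called in that direction. Without the 4 libraries 2 were higher and 1 lower in duodenum, with a median of 0.15 against -0.13 over all miRNAs, and 4 were higher in jejunum, with a median of 0.27 against -0.12. Over all 289 miRNAs, 106 were then higher and 134 lower in duodenum, and 105 higher and 133 lower in jejunum. Both members of the pair were lower in duodenum and in jejunum than in mammary gland, with and without the 4 libraries. From rumen the counts were mixed. Against jejunum 1 of the 7 was higher in rumen and 4 higher in jejunum, where 45.0% and 30.8% of all miRNAs were called. Against mammary gland 2 were higher in rumen and 3 lower, where 50.9% and 33.9% were called. Without the 4 libraries 2 were higher in rumen and 4 lower, beside 130 higher and 106 lower of all 289 miRNAs. Between duodenum and jejunum none of the 7 passed in limma. As a share of the summed CPM of all listed miRNAs of the group, the pair made up 46.5% ± 14.9 in mammary gland, 42.2% ± 4.0 in liver, 30.4% ± 3.09 in rumen, 23.0% ± 2.89 in jejunum and 21.7% ± 2.32 in duodenum (SD, n = 18). In mammary gland that share ran from 32.9% to 89.9%, and without the 4 libraries it was 40.9% ± 4.63 (SD, n = 14) and ran to 48.9%.

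Some other members of the group passed the test over diets in jejunum, in a number that depended on the analysis. There miR-16a (adjusted p = 0.00138), miR-195 (adjusted p = 0.0165) and miR-16b (adjusted p = 0.0302) passed the limma F test, 3 of 7 beside 23.8% of all miRNAs. The count was 2 with upper-quartile scaling, TMM scaling and edgeR, beside 97, 101 and 106 of all 336 miRNAs. It was 4 with DESeq2, beside 110 of 336, and 0 in the fit of all 90 samples, beside 25 of 289. In mammary gland miR-15a passed (adjusted p = 0.0434), 1 of 7 beside 3.72%, and without the 4 shallow libraries 3 of 7 passed, miR-15a, miR-15b and miR-497, beside 18.7%. In rumen, duodenum and liver none of the 7 passed, and neither did a member of the pair.

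Other miRNAs known for glucose and lipid metabolism formed a list of 24 names, of which 21 were tested between tissues. Their counts were mixed. In liver against mammary gland 5 were higher and 10 lower, with a median log2 difference of -0.19 against -0.12 over all miRNAs, of which 30.4% were called higher and 39.8% lower. Leaving out the 4 shallow libraries gave 5 higher and 12 lower, with a median of -0.45 against -0.28. Of all 289 miRNAs, 74 were then higher and 143 lower. In rumen against duodenum 11 were higher and 7 lower, with a median of 0.44 against 0.19 and 45.0% and 27.7% of all miRNAs called, and in rumen against liver 12 were higher and 7 lower, with a median of 0.42 against 0.47 and 55.0% and 29.4% called. In duodenum against jejunum 2 were higher and 2 lower, beside 4.84% and 6.57% of all miRNAs. The highest of the list by mean CPM were miR-143, miR-26a, miR-30a-5p and miR-27b, at 30700 CPM or more in mammary gland, well above the pair. In the F test over diets 5 of 21 passed in jejunum, namely miR-30a-5p, miR-29b, miR-125b, miR-26a and miR-21-5p, beside 23.8% of all miRNAs, and 1 of 22 in mammary gland, miR-29c, beside 3.72%. In mammary gland 7 of 23 passed once the 4 shallow libraries were left out, miR-29c among them, beside 18.7%. These names were picked out after their values were seen.

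The miRNAs most alike to each member were found over the 15 means of tissue and diet, by Pearson correlation of log2(CPM + 1) with each of 288 other miRNAs. These are descriptions without a test, since means of different tissues with the same diet share cows. For miR-103 the 5 highest were miR-1839 (r = 0.949), miR-502a (0.911), miR-660 (0.871), miR-2285t (0.862) and let-7c (0.858). With upper-quartile scaling these ranked 6, 31, 18, 3 and 2, and without the 4 shallow libraries 1, 2, 4, 12 and 7. They had their highest tissue mean in mammary gland, as miR-103 did, although miR-502a stood at only 13.05 CPM there and 1.84 to 2.38 CPM elsewhere. miR-660, for example, had 3665 CPM in mammary gland and between 936 and 1466 CPM elsewhere, and miR-1839 had 366 CPM there and between 119 and 146 CPM elsewhere.

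For miR-107 the 5 highest were miR-30f (r = 0.967), miR-30a-5p (0.951), miR-2478 (0.951), miR-2285o (0.938) and miR-30b-3p (0.935), of which 3 belong to the miR-30 family. With upper-quartile scaling these ranked 5, 2, 3, 1 and 4, and without the 4 shallow libraries 1, 3, 2, 4 and 31. Like miR-107 they had their highest tissue means in liver and mammary gland, although miR-30b-3p stood at only 2.73 and 2.85 CPM there. miR-30a-5p had 90880 CPM in liver and 104800 CPM in mammary gland, 33240 CPM in rumen and 9235 CPM in duodenum, and miR-30f had 908, 825, 487 and 118 CPM in the same order. The members had r = 0.677 with each other over the 15 means. Among 288 miRNAs, miR-107 ranked 19 in likeness to miR-103, and miR-103 ranked 34 in likeness to miR-107. With upper-quartile scaling that correlation was 0.887 and the ranks were 8 and 18, so that miR-107 was nearer to miR-103 than miR-660 (r = 0.813) and miR-502a (r = 0.770) were. It was 0.673, with ranks of 24 and 45, once the 4 shallow libraries were left out.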

How the data were processed

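The 90 samples were assigned to tissue and diet from their labels. The members and lists were chosen with earlier results of these data known. Reads were filtered with CASAVA 1.8, trimmed and aligned by the authors with sRNAbench to bovine miRNA precursors of miRBase, with mismatches and multiple mappings allowed; the genome build is not given in the sources used here. The deposited values are CPM, scaled by the authors to the reads mapped to all annotated miRNAs. The study calls them raw counts, but they were not whole and summed to just under 1000000. In each sample 100% of values were whole multiples of 1 step (tolerance 0.05 reads), taken as 1 read, which gave 937556 to 15621501 mapped reads a sample. Only 6 libraries held at least 100 values of up to 20 reads, from which a step can be read off low values alone; in the others it rests on all values, and recovered reads, counting errors and count tests rest on it. No libraries were identical. The authors' values were used as deposited, and no column was left without a sample.

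A miRNA was tested where over 50% of the samples in 1 or more tissues of the fit exceeded 1 CPM. The test was run with limma 3.58.1 (R 4.3.3; lmFit and eBayes with trend) on log2(CPM + 1), with a pseudocount of 1 CPM, and p-values adjusted by the Benjamini-Hochberg method were called under 0.05. A log2 difference is on that scale. Tissues were fitted over all 90 samples and diets within the 18 samples of a tissue. Ratios were tested by two-sided permutation (100000 permutations for tissues, exact for diets; numpy 2.4.6, scipy 1.17.1). Samples come from separate cows within a tissue, while the tissues share cows. The alternatives were pseudocounts of 0.1 and 5 CPM, upper-quartile and TMM scaling, other filters on low values (none, or a mean of at least 10 CPM), edgeR 4.0.16 and DESeq2 1.42.0 on recovered reads, fits of fewer or more samples, a replicate block, and samples left out in turn. Scripts were tested on simulated data. Named miRNAs were the pair, the 4 highest by mean CPM of each list, the 5 most alike to each member, and cell type markers. miRNA genes were placed by symbol in RefSeq ARS-UCD2.0, which gave 3 of 3; no coordinates are given because the build of the alignment is not stated.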

Additional observations from a re-analysis of the deposited data

Results flagged for a closer look

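Among 45 groups of 6 samples (miR-103, miR-107 and their ratio in 15 groups of tissue and diet), 4 held a sample far from the others by Dixon's test, where chance gives about 1 in 20. miR-103 in rumen with rice straw was lowest in replicate 5, at 2759 CPM, and the nearest sample had 3279 CPM. miR-107 in mammary gland with alfalfa hay was lowest in replicate 1, at 391.4 CPM, and the nearest had 853.3 CPM; this is the shallowest library of the study. The ratio in rumen with alfalfa hay was lowest in replicate 1, at 3.466, with the nearest at 4.157. The ratio in jejunum with corn stover was highest in replicate 3, at 6.795, with the nearest at 5.791.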

How the results depend on the processing

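The pseudocounts, the filters on low values and the replicate block left the direction and the call of every difference between tissues as they were, for 20 differences of the members and 10 of the ratio. Scaling did not. With upper-quartile scaling, TMM scaling, edgeR and DESeq2 in that order, the log2 difference of miR-103 was 0.049, -0.038, -0.032 and -0.022 for rumen against duodenum (no call), -0.66, -0.38, -0.38 and -0.52 for rumen against liver, -0.71, -0.34, -0.35 and -0.50 for duodenum against liver, and -0.60, -0.26, -0.27 and -0.41 for jejunum against liver, and that of miR-107 was 0.46, 0.28, 0.21 and 0.24 for liver against mammary gland, all called. Duodenum against liver also passed for miR-103 in a fit of these tissues alone (-0.18, adjusted p = 0.0251). Diets in jejunum passed for miR-107 with TMM, edgeR and DESeq2 (0.41, 0.40 and 0.36 for corn stover against alfalfa hay) and for miR-103 with TMM and edgeR (0.088 and 0.081 for rice straw against alfalfa hay). These calls are of the F test over the 3 diets. The values are of the contrast that was largest as deposited, which need not be the contrast behind the call. Without the 4 shallow libraries, the F test over diets in mammary gland passed. Corn stover against alfalfa hay, 0.18 for miR-103 and 0.24 for miR-107, did not pass there (limma, adjusted p = 0.622 and 0.510), while rice straw against corn stover did (-0.71 and -0.90), and the F test was lost again with upper-quartile or TMM scaling. With corn stover alone the log2 ratio differed between duodenum and jejunum (0.20). The cause of these changes was not tested. Numbers of miRNAs called also moved by over 1.5 times: between duodenum and jejunum from 14 higher and 19 lower to 48 and 54 in a fit of these tissues alone and to 30 and 27 with DESeq2 (22 and 23 with upper-quartile scaling, 28 and 20 with TMM, 26 and 20 with edgeR), and between diets in rumen from 5 to 8 with a mean of at least 10 CPM, to 3 with the replicate block, to 32 with DESeq2 and to 17 in the fit of all 90 samples, in jejunum from 80 to 25 in that fit, and in mammary gland from 12 to 0 with a pseudocount of 0.1 CPM, to 19 with 5 CPM, to 26 with edgeR, to 62 with DESeq2, to 55 with the replicate block, to 61 without the 4 shallow libraries and to 159 in the fit of all 90 samples.

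Leaving out single libraries moved the log2 difference of miR-103 between rice straw and alfalfa hay in rumen to between 0.43 and 0.62, that of the ratio between rice straw and corn stover in duodenum to between -0.13 and -0.081, and in jejunum to between 0.18 and 0.24. In duodenum the exact test of the ratio passed without rice straw replicate 2 (adjusted p = 0.00361), rice straw replicate 6 (0.0394) or corn stover replicate 2 (0.0497). With the replicate block (diets permuted within a replicate number), the ratio in jejunum, 0.19 for rice straw against corn stover, had an adjusted p of 0.0559 and no call; the block changed no other call of the members. The labels do not say that a number marks a cow. Same-numbered samples deviated together with r over 0.1 in 82 of 180 pairs across tissues within a diet. Across diets, where the cows differ, they did so in 31 of 90 pairs. Pairs of different numbers were not counted, so these counts do not decide the question. A pairing by number across tissues was not taken as given, and it was not excluded. Depth limits the ratio most in the shallowest library, at 11.4% counting error.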
